A study of Mus musculus with 12 samples.

Results

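The core genes of the circadian clock were followed through the 4 diet and temperature groups of an iBAT transcriptome series. They were the activators Arntl (which encodes BMAL1), Clock and Npas2, the repressors Per1, Per2, Per3, Cry1 and Cry2, and the D-box binding factors Dbp and Tef. They were chosen by gene name and not by a measured value, though with earlier results of these data known. They are 10 of the 61210 genes in the count table. All 10 passed the filter on low counts, as did 16737 genes in all. Total RNA was sequenced from wild type C57BL/6N mice, 20 weeks old, that were fed chow until 8 weeks of age. The groups were control diet (NCD) at 22 °C, NCD at 4 °C, high-fat diet (HFD) at 22 °C and HFD at 4 °C, with 3 mice in each. HFD was given for 12 weeks and cold lasted 24 h. The mice were kept in a regular light and dark cycle, and the hour at which tissue was taken is not given in the sources used here.

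The clock is a feedback loop of transcription. BMAL1 pairs with CLOCK or with NPAS2 and activates the Per and Cry genes through E-boxes in their promoters, and the PER and CRY proteins then enter the nucleus and inhibit that pair. In the second loop, REV-ERB proteins (Nr1d1, Nr1d2) repress and ROR proteins activate Arntl through ROR elements. DBP, TEF and HLF bind D-boxes, among them those of Per genes, and NFIL3 represses at the same sites. Dbp and Tef are themselves driven by E-boxes, so that their RNA peaks far from that of Arntl in the day. Brown adipose tissue holds such a clock, and REV-ERBα is known to repress Ucp1 there.

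Promoter sequences show which of these elements the members carry next to their start sites. RefSeq promoters on GRCm38.p6, from 250 bases before to 50 bases after a start site, were at hand for 9 of the 10 members, 14 promoters in all. For Per2 none was at hand, so it was not searched. The elements were searched on both strands as CACGTG for the E-box, TTATGTAA or TTACGTAA for the D-box, TAGGTCA for the ROR element and TGACGTCA for the cAMP response element (CRE). The 5 sequences below are those that hold a match, with the second promoter of Tef left out, and each match is in capitals. Per1 is at chr11:69098699-69098998 (plus strand), Cry1 at chr10:85185005-85185304 (minus strand), Tef at chr15:81802423-81802722 (plus strand), Per3 at chr4:151044616-151044915 (minus strand) and Arntl, at the second of its start sites, at chr7:113207261-113207560 (plus strand).
Per1, E-box: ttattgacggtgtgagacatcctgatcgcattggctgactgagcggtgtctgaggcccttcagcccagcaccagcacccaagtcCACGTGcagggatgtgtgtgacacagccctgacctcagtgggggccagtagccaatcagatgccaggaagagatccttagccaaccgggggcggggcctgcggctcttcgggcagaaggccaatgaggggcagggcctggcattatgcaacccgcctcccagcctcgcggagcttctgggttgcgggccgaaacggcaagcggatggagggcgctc
Cry1, E-box: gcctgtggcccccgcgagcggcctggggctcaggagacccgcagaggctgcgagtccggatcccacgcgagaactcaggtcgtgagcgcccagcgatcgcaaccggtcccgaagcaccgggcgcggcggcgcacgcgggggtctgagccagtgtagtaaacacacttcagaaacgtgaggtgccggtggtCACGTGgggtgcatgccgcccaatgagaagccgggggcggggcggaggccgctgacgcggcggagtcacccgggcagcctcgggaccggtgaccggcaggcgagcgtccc
Tef, E-box: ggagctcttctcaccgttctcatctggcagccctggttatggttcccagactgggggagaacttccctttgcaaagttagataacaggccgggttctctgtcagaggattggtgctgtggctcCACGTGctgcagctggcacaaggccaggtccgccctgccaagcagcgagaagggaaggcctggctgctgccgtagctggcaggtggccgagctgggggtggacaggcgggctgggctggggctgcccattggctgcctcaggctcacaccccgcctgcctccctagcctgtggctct
Per3, D-boxes: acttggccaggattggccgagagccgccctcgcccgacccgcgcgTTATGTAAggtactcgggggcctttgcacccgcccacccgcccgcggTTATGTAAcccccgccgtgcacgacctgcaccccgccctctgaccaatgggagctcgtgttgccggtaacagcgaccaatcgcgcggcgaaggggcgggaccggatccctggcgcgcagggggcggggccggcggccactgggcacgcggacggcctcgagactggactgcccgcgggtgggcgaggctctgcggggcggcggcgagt
Arntl, ROR element: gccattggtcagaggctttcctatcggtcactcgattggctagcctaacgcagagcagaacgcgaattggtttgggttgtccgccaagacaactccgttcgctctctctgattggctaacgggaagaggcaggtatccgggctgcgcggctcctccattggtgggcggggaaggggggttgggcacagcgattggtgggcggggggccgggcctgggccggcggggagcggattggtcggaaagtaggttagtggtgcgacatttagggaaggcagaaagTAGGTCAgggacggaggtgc
The E-box began 166 bases before the start site in Per1, 60 in Cry1 and 127 in Tef, and the second promoter of Tef held one 138 bases before its start. Among all 32851 promoters of this length, 7.15% held this E-box. Per3 held 2 D-boxes, 205 and 158 bases before its start site, against a D-box in 1.06% of all promoters. Arntl held a ROR element 30 bases after its start, a match found in 2.61% of all promoters. No member promoter that was searched held the CRE, which 1.79% of all promoters held. A match is a description of letters, and elements outside these windows were not searched.

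The 10 genes covered a wide range of levels. As TMM-normalized CPM per kb of exon in GENCODE M21 (CPM scales counts to a library of equal size; means of 12 libraries), Tef was highest at 28.2, followed by Dbp at 13.0 and Clock at 10.7. Per3 (6.58), Cry2 (6.16), Per2 (6.11) and Per1 (5.94) were next, then Cry1 (4.33). Arntl (1.35) and Npas2 (0.159) were lowest. The ranges over libraries of each gene and its neighbour in this order overlapped, from 12.3 to 40.8 for Tef and 2.44 to 25.4 for Dbp at the top to 0.257 to 3.99 for Arntl and 0.0109 to 0.789 for Npas2 at the bottom. Npas2 rested on 1 to 84 counts per library, and its values are therefore the least precise. Dbp, on chromosome 7 from 45705088 to 45710203 (plus strand), shares 539 exon bases, 18.0% of its own, with Sphk2 on the other strand. Whether the counting used strand is not stated, so reads of the 2 genes may not be told apart. The shares of Cry2, Tef and Arntl in exons of opposite-strand noncoding genes were 4.67%, 2.45% and 0.439%.

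Libraries held 15136861 to 46740702 counts. By the labels, replicates 1 and 2 of each group are batch 1, with 15136861 to 21026727 counts, and replicate 3 of each group is batch 2, with 34067515 to 46740702. All fixed cell type markers had counts in every library. Summed levels of the 10 brown adipocyte markers were 12345 to 16299 CPM at 22 °C and 20649 to 32452 CPM at 4 °C. The 4 white adipocyte markers summed to 170 to 307 CPM at 22 °C and 44.0 to 142 CPM at 4 °C on NCD, and to 108 to 298 CPM and 41.7 to 76.7 CPM on HFD. Their part in the cold contrasts was not tested. The 10 skeletal muscle markers summed to 541 to 16766 CPM. In bulk tissue, fewer cells of a type and less RNA per cell cannot be told apart.

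Neither cold nor diet moved a member past the threshold in the fit of the 4 group means. Once same-numbered libraries of a diet were paired as a block, 1 of 10 members, Per1, passed it in cold on NCD. That is near the share of all genes called there with the block, 8.86%. With 1 number term shared by all 4 groups, Per1 did not pass it (adjusted p = 0.0798 in edgeR). In edgeR's quasi-likelihood test, a call required a log2 fold change beyond 0.5 in either direction together with an adjusted p under 0.05. The count called was 0 of 10 for cold on NCD, where 6.27% of all genes tested were called, and 0 of 10 for cold on HFD, where 9.58% were. It was 0 of 10 for HFD at 22 °C and at 4 °C too, against 2.09% and 4.75% of all genes. DESeq2 also called 0 of the 10 in each of these contrasts. Only Cry2 in cold on NCD had an unadjusted p under 0.05. The 4-group test, called at an adjusted p under 0.001, called 0 members by either tool and 2.55% of all genes by edgeR, and the lowest adjusted p of a member was 0.161, for Cry2. The interaction of diet and cold, called at an adjusted p under 0.05, called 0 members by either tool, 0 genes in all (0%) by edgeR and 58 by DESeq2, and no member had an unadjusted p under 0.05. The standard errors of the members were large. Their median was 0.56 on the log2 scale in both cold contrasts, against 0.22 for all genes tested.

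**Figure D1:**
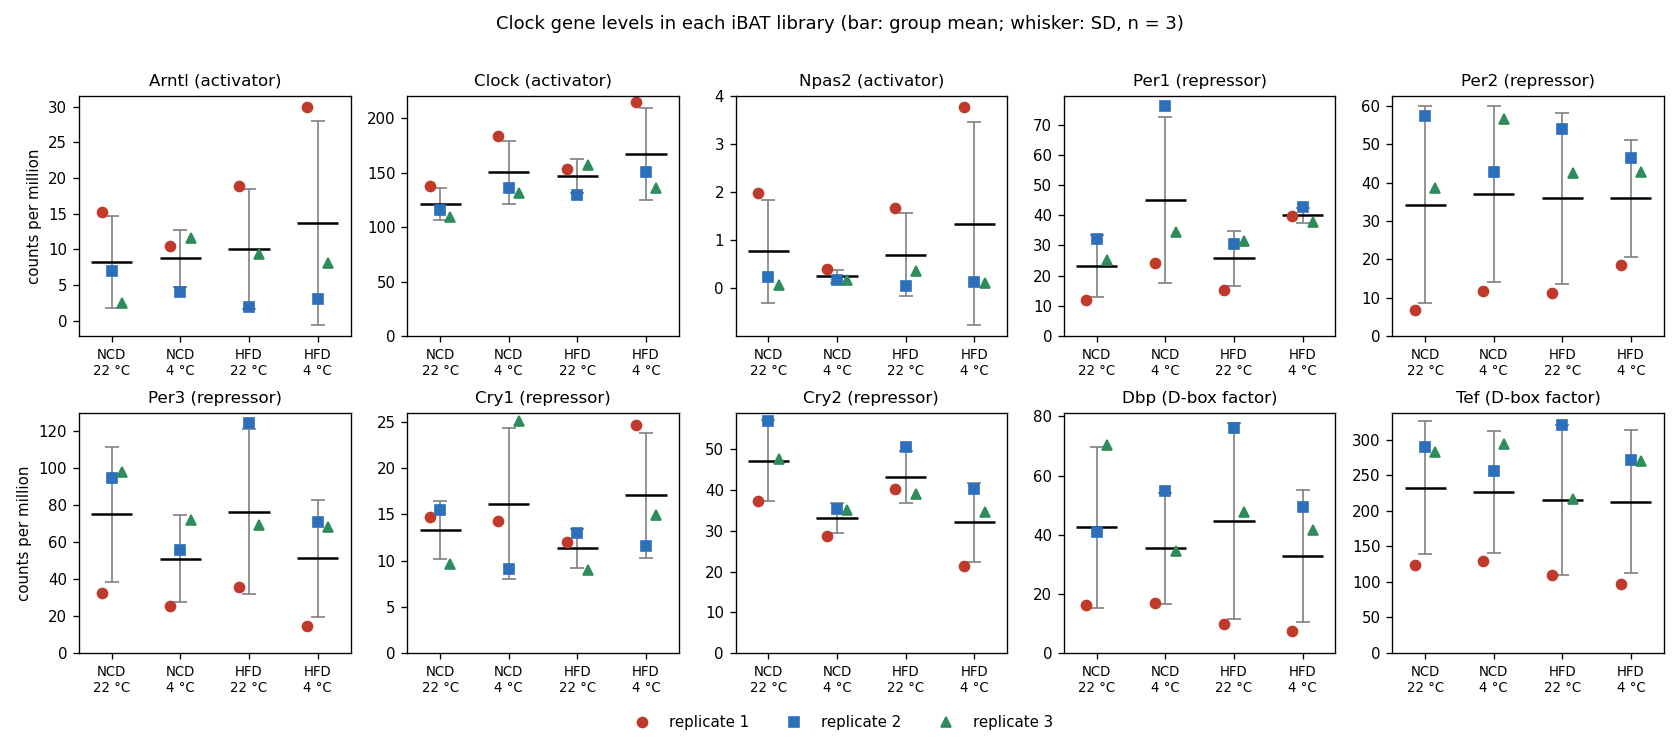
Level of each clock gene in each library (vertical axes, TMM-normalized CPM) in the 4 groups (horizontal axes), with circles for replicate 1, squares for replicate 2 and triangles for replicate 3; lines are group means and whiskers the SD of 3 libraries. Circles lie lowest in all 4 groups for Per2, Per3, Dbp and Tef, and highest for Npas2.

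Among the activators, Clock encodes the common partner of BMAL1. It was at 138, 116 and 110 CPM in replicates 1, 2 and 3 of NCD at 22 °C, and at 184, 136 and 132 CPM of NCD at 4 °C. On HFD it was at 154, 129 and 158 CPM at 22 °C, and at 215, 151 and 136 CPM at 4 °C. The groups overlapped on both diets. With cold, its log2 fold change was 0.31 ± 0.19 (SE) on NCD (adjusted p = 0.382) and 0.19 ± 0.19 on HFD (adjusted p = 0.548). HFD at 22 °C gave 0.28 ± 0.19 (adjusted p = 0.472), the lowest adjusted p of the members in that contrast.

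Arntl encodes the partner that both CLOCK and NPAS2 need. It was at 15.2, 6.97 and 2.47 CPM in replicates 1, 2 and 3 of NCD at 22 °C and at 10.4, 4.06 and 11.6 CPM of NCD at 4 °C. On HFD it was at 18.8, 1.93 and 9.35 CPM at 22 °C and at 30.0, 3.04 and 8.06 CPM at 4 °C. Libraries of the same group thus differed up to 9.87-fold, and the groups overlapped. Cold gave a log2 fold change of 0.12 ± 0.91 on NCD (adjusted p = 0.965) and 0.45 ± 0.90 on HFD (adjusted p = 0.782), with 95% intervals of -1.89 to 2.12 and -1.53 to 2.43.

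Npas2 encodes the alternative partner of BMAL1. Its counts were 32, 4 and 3 in replicates 1, 2 and 3 of NCD at 22 °C and 7, 3 and 7 of NCD at 4 °C. They were 26, 1 and 13 for HFD at 22 °C and 84, 3 and 5 for HFD at 4 °C. Replicate 1 had the highest CPM in every group. HFD at 4 °C gave a log2 fold change of 2.44 ± 1.55 (adjusted p = 0.391), and the interaction one of 2.55 ± 2.14 (adjusted p = 0.867). Both turned on replicate 1 of HFD at 4 °C, for without that library they were -0.90 and -0.76.

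Among the repressors, Per1 is the family member that also responds to cAMP and glucocorticoid signals. It was at 11.9, 32.2 and 25.1 CPM in replicates 1, 2 and 3 of NCD at 22 °C and at 24.1, 76.3 and 34.5 CPM of NCD at 4 °C. On HFD it was at 15.1, 30.4 and 31.5 CPM at 22 °C and at 39.6, 42.7 and 37.6 CPM at 4 °C. All cold libraries on HFD lay above all libraries at 22 °C on that diet, a pattern that 15.9% of all genes had, while the groups overlapped on NCD. The log2 fold change with cold was 0.96 ± 0.44 on NCD (adjusted p = 0.231, and 0.0356 with same-numbered libraries of the diet paired as a block) and 0.63 ± 0.44 on HFD (adjusted p = 0.376), and that with HFD at 4 °C was -0.17 ± 0.43 (adjusted p = 0.872).

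Per2 encodes a scaffold of the repressor complex. It was at 6.72, 57.5 and 38.6 CPM in replicates 1, 2 and 3 of NCD at 22 °C and at 11.8, 42.8 and 56.5 CPM of NCD at 4 °C. On HFD it was at 11.1, 54.0 and 42.5 CPM at 22 °C and at 18.5, 46.5 and 42.8 CPM at 4 °C. Replicate 1 was lowest in each group and the groups overlapped. With cold, its log2 fold change was 0.11 ± 0.76 on NCD (adjusted p = 0.959) and close to 0 on HFD (adjusted p = 1.00, 95% interval -1.66 to 1.66).

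Per3, the third Period gene, was at 32.5, 94.3 and 97.6 CPM in replicates 1, 2 and 3 of NCD at 22 °C and at 25.4, 55.6 and 71.7 CPM of NCD at 4 °C. On HFD it was at 35.9, 124 and 68.9 CPM at 22 °C and at 14.6, 70.6 and 67.9 CPM at 4 °C. Replicate 1 was again lowest in each group and the groups overlapped. Cold gave a log2 fold change of -0.55 ± 0.63 on NCD (adjusted p = 0.690) and -0.58 ± 0.63 on HFD (adjusted p = 0.586).

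Cry1 and Cry2 encode the cryptochromes that block the BMAL1 pair. Cry1 was at 14.7, 15.5 and 9.67 CPM in replicates 1, 2 and 3 of NCD at 22 °C and at 14.3, 9.06 and 25.1 CPM of NCD at 4 °C. On HFD it was at 12.0, 13.0 and 8.95 CPM at 22 °C and at 24.6, 11.5 and 14.9 CPM at 4 °C. No replicate number was the lowest or the highest throughout. The log2 fold change with cold was 0.30 ± 0.37 on NCD (adjusted p = 0.719) and 0.59 ± 0.37 on HFD (adjusted p = 0.326), and that with HFD at 22 °C was -0.23 ± 0.37 (adjusted p = 0.803).

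Cry2 was at 37.2, 57.0 and 47.6 CPM in replicates 1, 2 and 3 of NCD at 22 °C and at 28.8, 35.4 and 35.2 CPM of NCD at 4 °C. On HFD it was at 40.1, 50.5 and 39.1 CPM at 22 °C and at 21.4, 40.2 and 34.7 CPM at 4 °C. On NCD all cold libraries lay below all libraries at 22 °C, a pattern that 12.6% of all genes had, and on HFD replicate 2 in the cold lay within the range at 22 °C. With cold, its log2 fold change was -0.51 ± 0.22 on NCD (unadjusted p = 0.0423 in edgeR's fit across all genes, adjusted p = 0.207) and -0.43 ± 0.22 on HFD (adjusted p = 0.240), the lowest adjusted p of the members in each contrast.

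Dbp and Tef encode transcription factors of the D-box, through which the clock reaches many output genes. Dbp was at 16.2, 41.0 and 70.4 CPM in replicates 1, 2 and 3 of NCD at 22 °C and at 17.1, 54.7 and 34.7 CPM of NCD at 4 °C. On HFD it was at 9.92, 76.0 and 47.8 CPM at 22 °C and at 7.29, 49.4 and 41.7 CPM at 4 °C. Replicate 1 was lowest in each group. Cold gave a log2 fold change of -0.27 ± 0.79 on NCD (adjusted p = 0.899) and -0.44 ± 0.79 on HFD (adjusted p = 0.755).

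Tef was at 124, 291 and 283 CPM in replicates 1, 2 and 3 of NCD at 22 °C and at 130, 256 and 294 CPM of NCD at 4 °C. On HFD it was at 110, 321 and 216 CPM at 22 °C and at 96.5, 272 and 270 CPM at 4 °C. The groups overlapped, and replicate 1 stood below replicates 2 and 3 in each of them. The log2 fold change with cold was -0.04 ± 0.49 on NCD (adjusted p = 0.981) and -0.02 ± 0.49 on HFD (adjusted p = 0.986).

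**Figure D2:**
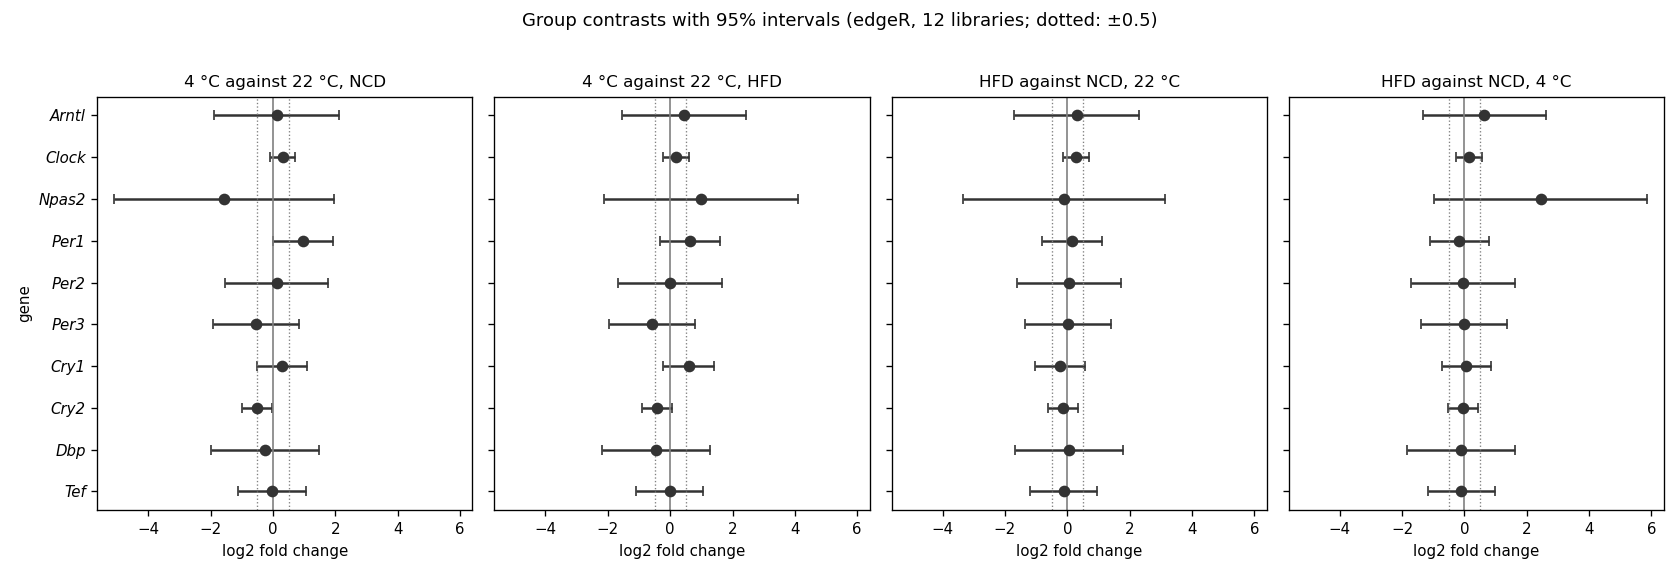
Log2 fold change of each clock gene (horizontal axes, points, with bars for the 95% interval) in the 4 contrasts of groups from 1 edgeR fit over 12 libraries; dotted lines mark log2 fold changes of -0.5 and 0.5. The bars cross 0 except for Cry2 in cold on NCD, whose interval ended just below 0, at -0.02, and they are narrowest for Clock and Cry2.

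The levels of Per2, Per3, Dbp and Tef went with the replicate number of the library. In the libraries numbered 1, Per2, Per3, Dbp and Tef lay below and Npas2 lay above every library numbered 2 or 3, whatever the diet and temperature. Per2 was at 6.72 to 18.5 CPM in the 4 libraries numbered 1 and at 38.6 to 57.5 CPM in the other 8. Per3 was at 14.6 to 35.9 against 55.6 to 124 CPM, Dbp at 7.29 to 17.1 against 34.7 to 76.0 CPM and Tef at 96.5 to 130 against 216 to 321 CPM. Npas2 was at 0.401 to 3.78 CPM against 0.0523 to 0.367. The ranges of the other 5 members overlapped. Relative to their group means, Arntl, Clock and Npas2 were above in 4 of 4 of the libraries numbered 1, and Per1, Per2, Per3, Cry2, Dbp and Tef were below in 4 of 4. The shares of all genes with either pattern were not computed, so how usual they are is not known from these counts.

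**Figure D3:**
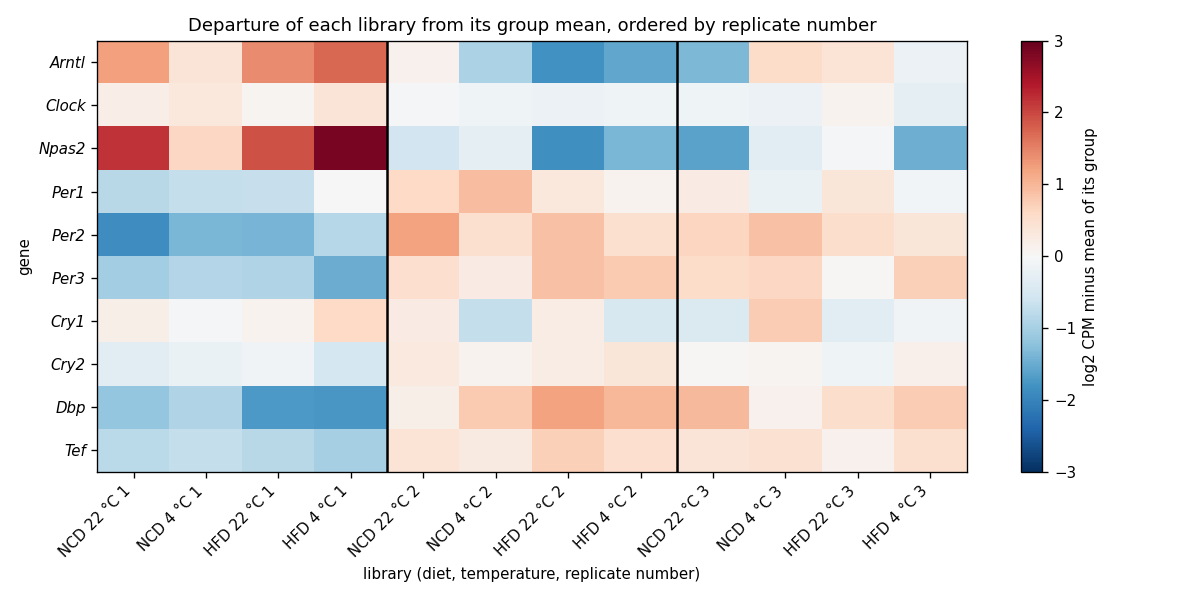
Log2 CPM of each clock gene minus the mean of its group (colour, red above and blue below the mean) in the 12 libraries, ordered by replicate number along the horizontal axis, with black lines between the numbers. In the 4 libraries numbered 1, Arntl, Clock and Npas2 were above and Per1, Per2, Per3, Cry2, Dbp and Tef below their group means, with Per1 for HFD at 4 °C nearly at its mean.

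A test of the replicate number beside the group means, chosen after the values had been seen, called 4 of 10 members and 0.866% of all genes at an adjusted p under 0.05. They were Tef (adjusted p = 0.00506), Per2 (0.0139), Per3 (0.0152) and Dbp (0.0239). At an unadjusted p under 0.05, 9 of 10 members passed, all but Cry1, against 13.2% of all genes. Of the variation of Tef within groups, 95.1% ran along the number. The share was 91.6% for Per2, 90.2% for Per3 and 88.4% for Dbp, 65.2% to 78.3% for Arntl, Per1, Clock, Cry2 and Npas2, and 14.7% for Cry1. The median over all genes tested was 28.6%. The members also varied more than most genes, with an SD within groups of 0.99 to 1.85 on the log2 scale for Npas2, Arntl, Dbp, Per2 and Per3, against a median of 0.27 for all genes. Clock (0.25) and Cry2 (0.31) were close to that median.

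**Figure D4:**
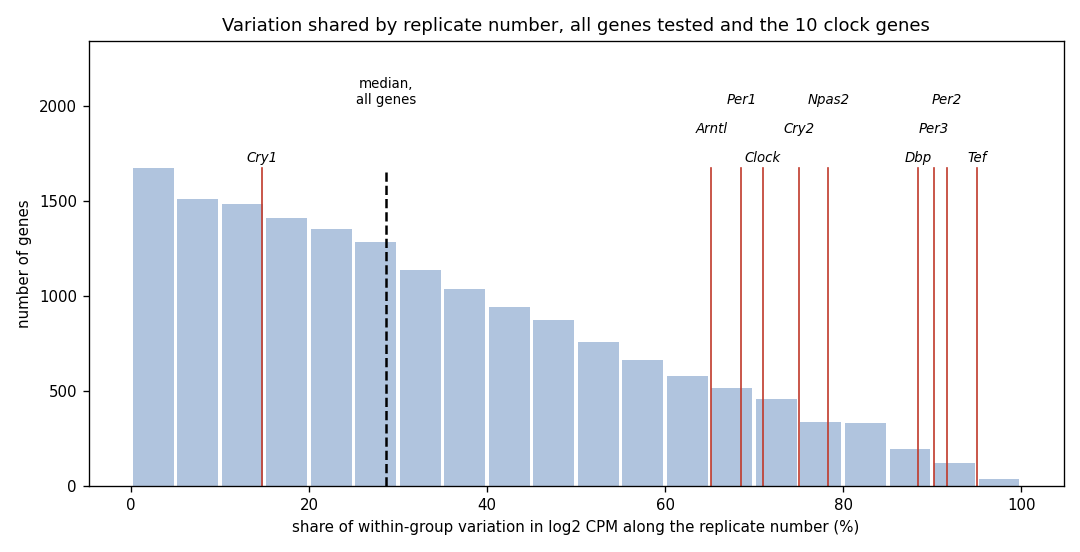
Number of genes (vertical axis) by the share of their variation within groups that ran along the replicate number (horizontal axis, percent, bins of 5), with red lines at the 10 clock genes and a dashed line at the median of all genes, 28.6%. Of the 10, 9 lie between 65.2% and 95.1% and Cry1 lies at 14.7%.

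Replicates 1 and 2 belong to the same labelled batch, so that a comparison between them stays within it. Number 2 against number 1 called 7 genes of 16737 (0.0418%), and 3 of these were members. The log2 difference was 1.32 ± 0.13 for Tef (adjusted p = 0.0270), 2.12 ± 0.26 for Per2 and 1.68 ± 0.21 for Per3 (adjusted p = 0.0467 for both). The calls of Per2 and Per3 were lost with RLE normalization (adjusted p = 0.0528 for both) and with a filter at a mean of 10 counts (0.0539 for both). Of 12 fits that each left out 1 library, Tef was called in 3, Per2 in 1 and Per3 in 1, and in batch 1 alone the adjusted p was 0.0617, 0.132 and 0.0931. The other genes, named here after their values had been seen, were Ciart, a repressor of the clock (2.08 ± 0.26), Tshr, the thyrotropin receptor (-1.60 ± 0.16), the protease gene Adamts4 (-2.10 ± 0.26) and the lactate carrier gene Slc16a1 (-0.83 ± 0.10). For Dbp the log2 difference was 2.18 ± 0.30, with an adjusted p of 0.0588. Per1 (1.04 ± 0.25) and Cry2 (0.53 ± 0.12) were on the same side, and Arntl (-2.18 ± 0.57), Npas2 (-3.55 ± 0.76), Clock (-0.37 ± 0.11) and Cry1 (-0.36 ± 0.33) on the other, with adjusted p from 0.297 to 0.853.

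Number 3 against number 1, which shares the libraries numbered 1, called 1.19% of all genes and 4 members. They were Tef (1.21 ± 0.13), Per2 (1.94 ± 0.25), Per3 (1.56 ± 0.21) and Dbp (1.96 ± 0.30). Number 3 against number 2 called 0.615% of all genes and 0 members, of which 0 had an unadjusted p under 0.05. The intervals of that difference were -0.39 to 0.18 for Tef and -0.72 to 0.36 for Per2. In a fit of batch 1 alone (8 libraries), 0.0181% of all genes and 0 members were called, while 9 of 10 had an unadjusted p under 0.05 and Tef had the lowest adjusted p of the members, 0.0617. The 4 calls also depended on single libraries. Only Tef was called without replicate 1 of HFD at 22 °C or without replicate 3 of HFD at 4 °C, Per2 and Tef without replicate 1 of NCD at 22 °C, and Dbp and Tef without replicate 1 of NCD at 4 °C.

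The size of the step from replicate 1 to replicate 2 differed between members and groups. Dbp was 7.66-fold higher in replicate 2 for HFD at 22 °C and 6.77-fold higher for HFD at 4 °C, but 2.53-fold and 3.20-fold higher for NCD at 22 °C and 4 °C. Arntl was 9.73-fold and 9.87-fold lower in replicate 2 on HFD at 22 °C and 4 °C, and 2.18-fold and 2.57-fold lower on NCD. For Tef the fold ran only from 1.97 to 2.92. The differences between diets in these steps were not tested.

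Skeletal muscle markers also varied between libraries of a group. Their summed level was 541 to 2578 CPM in the libraries numbered 1, 708 to 15782 CPM in those numbered 2 and 1120 to 16766 CPM in those numbered 3. Replicates 1 and 2 on HFD had close sums, 1812 and 2029 CPM at 22 °C and 541 and 708 CPM at 4 °C. Within these 2 sets, Per2 was 4.87-fold and 2.52-fold, Per3 3.46-fold and 4.84-fold and Tef 2.92-fold and 2.82-fold higher in replicate 2. Per1 was 2.01-fold and 1.08-fold higher there, and Cry1 was at 1.08 and 0.468 of its level in replicate 1. For NCD, replicates 1 and 2 had sums of 2578 and 15782 CPM at 22 °C and of 1308 and 8619 CPM at 4 °C. The part of muscle RNA in the members' differences was not tested on either diet.

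Libraries with the same number on the same diet were therefore set side by side, because over all genes they deviated together from their group means. From 22 °C to 4 °C, Per1 was higher in 6 of 6 such pairs, by 0.26 to 1.38 on the log2 scale. Per3 was lower in 6 of 6, with differences of -1.29 to -0.02, and Cry2 was lower in 6 of 6, with differences of -0.91 to -0.17. Among all genes, 14.1% were higher and 13.3% were lower in all 6 pairs, so that 1 and 2 of 10 members are near the background. Clock was higher in 5 of 6 pairs, and the other 6 members went both ways.

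**Figure D5:**
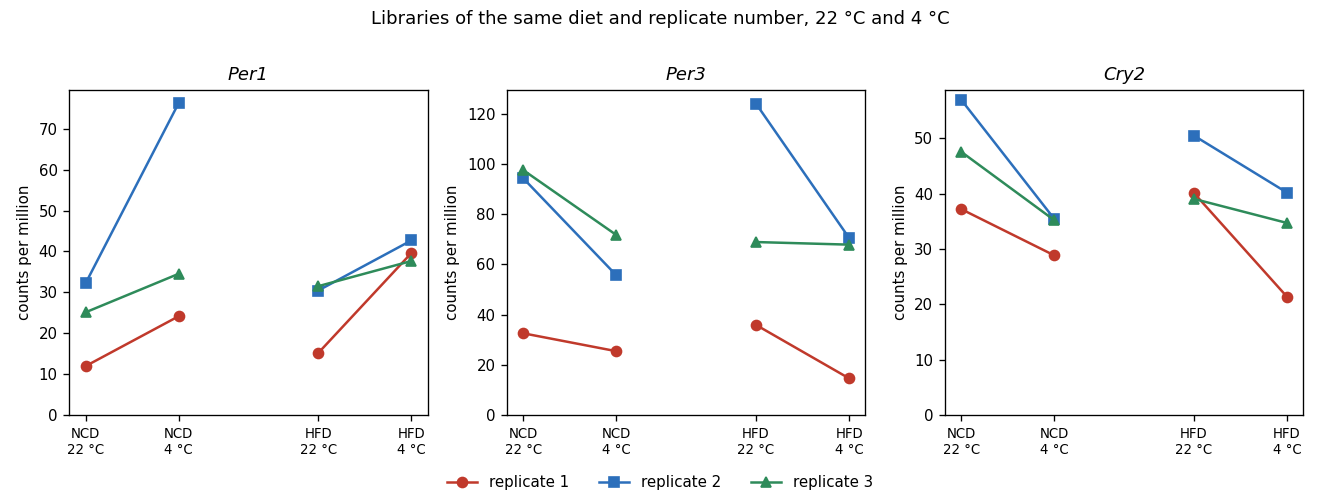
Level of Per1, Per3 and Cry2 (vertical axes, TMM-normalized CPM) at 22 °C and 4 °C on each diet, with lines joining libraries of the same diet and replicate number. Each of the 6 lines rises for Per1 and falls for Per3 and Cry2, and the line of Per3 for replicate 3 on HFD is nearly flat.

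With the number as a block within diet, edgeR called 1 of 10 members for cold on NCD, where 8.86% of all genes were called. It was Per1, with a log2 fold change of 0.90 (adjusted p = 0.0356), and with 1 number term shared by all 4 groups its adjusted p was 0.0798. For cold on HFD, where the block called 12.9% of all genes, the lowest adjusted p of a member was 0.0562 (Per3, log2 fold change -0.69), and Per1 had a log2 fold change of 0.69 (adjusted p = 0.0667). Cry2 was close to the threshold on both diets (-0.50 on NCD, adjusted p = 0.0644, and -0.46 on HFD, adjusted p = 0.0656). The standard errors of the members fell where the number held most of their variation. With the shared number term, that of Per2 for cold on NCD went from 0.76 to 0.28 and that of Tef from 0.49 to 0.15, while that of Cry1 went from 0.37 to 0.39.

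Arntl and Dbp lay on opposite sides also among the 8 libraries numbered 2 and 3. Those numbered 1 formed a cluster of their own for Dbp and Per3, so that these relations were taken over the other 8. Over the 8, Arntl and Dbp had r = -0.90 and rho = -0.88 on log2 CPM (two-sided exact permutation p = 0.00181 and 0.00724, adjusted over 3 relations 0.00543 and 0.0217). Arntl and Npas2 had r = 0.73 and rho = 0.67 (exact permutation p = 0.0400 and 0.0831, adjusted 0.0600 and 0.125). Arntl and Per3 had r = -0.52 and rho = -0.50 (exact permutation p = 0.187 and 0.216, adjusted 0.187 and 0.216). Without the 2 libraries farthest from the median of Arntl, replicate 3 of NCD at 4 °C and replicate 2 of HFD at 22 °C, r for Dbp was -0.79 (exact permutation p = 0.0542, adjusted 0.163), so that the call rests on those libraries, while r kept its sign over the 6 left. These permutations moved values freely across groups and batches, so their p does not hold the groups fixed. On deviations from the group means, rearranged within groups, r for Arntl and Dbp was -0.95 (exact permutation p = 0.125, adjusted 0.375). The 16 arrangements of that test give no lower p. Each batch holds 4 of the 8 libraries, too few for a value within a batch.

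The members were set among further genes of the clock, all of which were tested. Over all genes tested, 6.27% were called in cold on NCD and 9.58% in cold on HFD. Of 11 genes of the second loop and further transcription factors, 1 was called in a cold contrast, where it fell on HFD. It was Bhlhe40, which encodes the E-box repressor DEC1, at 80.3 to 104 CPM at 22 °C and at 22.1 to 43.0 CPM at 4 °C (log2 fold change -1.47 ± 0.27, adjusted p = 0.00703). Its value in cold on NCD was -0.88 ± 0.27 (adjusted p = 0.0712, and 0.0102 with DESeq2), and the interaction was -0.58 ± 0.38 (adjusted p = 0.826). Rorb, an activator at ROR elements, was the 1 of 11 called with HFD, against 2.09% of all genes at 22 °C and 4.75% at 4 °C. It rose by 2.43 ± 0.36 at 22 °C (adjusted p = 0.00743) and 3.11 ± 0.38 at 4 °C (adjusted p = 0.00198) on the log2 scale. It was at 0.401 to 1.10 CPM on NCD and at 2.35 to 6.35 CPM on HFD, from 7 to 180 counts per library. In the 8 libraries numbered 2 and 3 alone, its calls were lost (2.44 and 2.69, adjusted p = 0.126 and 0.110). The median log2 fold change of these 11 was -0.20 in cold on NCD and -0.44 in cold on HFD, against -0.01 and -0.04 for all genes.

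Of 12 kinases, ubiquitin ligases and partners of clock proteins, 1 was called, in cold on HFD, where 9.58% of all genes were. It was Rbm3, a cold-inducible RNA-binding protein, which rose by 0.69 ± 0.15 (adjusted p = 0.0120). It was at 46.4 to 50.9 CPM at 22 °C and at 61.5 to 95.2 CPM at 4 °C. On NCD it was at 58.0 to 73.7 CPM at 22 °C and at 52.8 to 55.5 CPM at 4 °C. Fbxw11 and Csnk1a1 had an adjusted p under 0.05 in cold on both diets, with log2 fold changes short of 0.5. They were 0.47 on NCD and 0.48 on HFD for Fbxw11 (adjusted p = 0.00885 and 0.00565). For Csnk1a1 they were 0.38 and 0.35 (adjusted p = 0.0384 and 0.0391). Of 10 clock-controlled output genes, 1 was called as higher and 1 as lower in cold on NCD, against 6.27% of all genes called there. In cold on HFD 1 was called as higher. Noct, a rhythmic dinucleotide phosphatase gene, rose by 1.24 ± 0.15 on NCD (adjusted p = 0.00116) and by 1.03 ± 0.15 on HFD (adjusted p = 0.00214). Its libraries ranged from 94.8 to 149 CPM at 22 °C and from 195 to 293 CPM at 4 °C. Tspan4, a tetraspanin gene, fell in cold on NCD (-0.94 ± 0.25, adjusted p = 0.0474), a call that was lost on leaving out any 1 of 8 libraries, the 6 on NCD, replicate 1 of HFD at 22 °C and replicate 2 of HFD at 4 °C.

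Per1 shares its inputs with genes of the cAMP and glucocorticoid response. Of 9 such genes, 3 were called as higher and 0 as lower in cold on NCD, against 6.27% of all genes called there in either direction. In cold on HFD 1 of 9 was called as higher and 0 as lower, close to the 9.58% of all genes called in either direction. Those not called on NCD included Fkbp5 (0.55 ± 0.76, adjusted p = 0.753), Zbtb16 (0.58 ± 0.81, adjusted p = 0.755) and Fos (-0.46 ± 0.77, adjusted p = 0.798). On NCD 8 of the 9 had a log2 fold change above 0. Sgk1, a glucocorticoid-induced kinase gene, rose by 1.26 ± 0.18 on NCD (adjusted p = 0.00244) and by 1.15 ± 0.18 on HFD (adjusted p = 0.00278). Crem, a CRE-binding factor gene, rose by 0.73 ± 0.14 on NCD (adjusted p = 0.0104). Sik1, a cAMP-induced kinase gene, rose by 1.97 ± 0.47 on NCD (adjusted p = 0.0270), and this call was lost without replicate 2 or 3 of NCD at 22 °C or without replicate 1 or 2 of NCD at 4 °C. The median log2 fold change of the 9 was 0.73 on NCD and 0.32 on HFD, against -0.01 and -0.04 for all genes. Of the 42 genes of these 4 lists, Rorb was the only one called with HFD.

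By replicate number, 5 of the 42 were called, against 0.866% of all genes. Ciart and the ubiquitin protease gene Usp2, both targets of the BMAL1 pair, were higher in numbers 2 and 3 than in number 1. The log2 differences were 2.08 ± 0.26 and 1.51 ± 0.26 for Ciart (adjusted p of the number = 0.0193) and 1.78 ± 0.24 and 1.30 ± 0.23 for Usp2 (0.0227). Dtx4 was lower in numbers 2 and 3 (-1.43 ± 0.20 and -0.86 ± 0.19, adjusted p = 0.0227), as was the phosphatase gene Dusp1 (-0.70 ± 0.16 and -1.57 ± 0.17, adjusted p = 0.00916). Nono, which encodes a partner of PER proteins, was lower in number 3 alone (-0.51 ± 0.08, against -0.03 ± 0.08 in number 2, adjusted p = 0.0404). Only Dusp1 was called when replicate 1 of NCD at 22 °C, of NCD at 4 °C or of HFD at 22 °C was left out, and none when replicate 3 of HFD at 4 °C was.

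Across the 12 libraries and 16409 genes, those whose log2 CPM went most like that of Arntl included Dtx4 (r = 0.88), Ermp1 (0.83), Hmgxb4 (0.83) and Glrx (0.81). Those most like Dbp were Adcy9 (0.88), Acap3 (0.87), Nr1d2 (0.86), Phf11c (0.85) and Gdap10 (0.85). These correlations are a description, since the libraries share groups, batches and numbers. Nr1d2, a REV-ERB gene of the second loop, was at 56.3 to 101 CPM in the libraries numbered 1 and at 83.8 to 169 CPM in the others.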

How the data were processed

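After cutadapt filtering, the authors ran salmon on the transcripts of GENCODE M22 plus RNAcentral 5 (GRCm38). Tool versions are not given in the sources used here. The deposited table holds unnormalized estimated counts, as integers, for each gene and library, with no pooling of replicates. Salmon shares reads among similar transcripts, and strand use is not stated. The 12 libraries were grouped by their labels.

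Genes were kept with filterByExpr (minimum count 10), TMM-normalized and tested in edgeR 4.0.16 (R 4.3.3) with 4 group means, Benjamini-Hochberg over 16737 genes. Intervals are 95%. CPM values are TMM-normalized, and log2 CPM used a prior count of 2. P-values of the fit of 4 group means are taken against the spread between mice of a group. Those with a number term or block are taken against the spread left beside the number. Those of the correlations come from permutations. DESeq2 1.42.0 was an alternative, beside other normalization, filters, batch terms, blocks and libraries left out.

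Same-numbered libraries deviated together between temperatures within a diet (correlations 0.219 to 0.456 on NCD, 0.155 to 0.386 on HFD). Between diets, those numbered 1 also did (0.178 to 0.365), while those numbered 2 and 3 did not (-0.214 to 0.0387). No source states where this pairing comes from.

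Named genes were the 10 members, further clock genes past a threshold, and the 5 most like Arntl and Dbp, of which 1 is not reported here. Members and lists were chosen with earlier results of these data known. The number test, its alternatives and the restriction of the correlations to 8 libraries, in place of deviations from group means over 12, were added after seeing the data. Genome positions are from GENCODE M21 and promoters from RefSeq. The steps were tested on simulated data.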

Additional observations from a re-analysis of the deposited data

How the results depend on the processing

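The count of members called stayed at 0 in the diet contrasts, cold on HFD, the interaction and the 4-group test under every alternative, the replicate block included. For cold on NCD it was 1 (Per1) with the replicate block within diet and 0 otherwise, and the cause was not tested. The replicate block changed no other call of a member in the group contrasts. Within diet it ended none of the cold calls of the further clock genes, and Bhlhe40 in cold on NCD stayed uncalled (adjusted p = 0.0715), although no filter on counts called it (0.0332). By replicate number, 4 members were called. DESeq2 called 8, no filter on counts gave 7, batch 1 alone gave 0, and leaving out 1 library gave 1 to 4. For Arntl and Dbp, r was -0.79 without the 2 libraries farthest from the median of Arntl and -0.95 on deviations from the group means (exact permutation adjusted p = 0.163 and 0.375), where the 16 arrangements give no p below 0.125. The correlation could not be run within batch 1, which has 4 of these libraries.

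Some log2 fold changes near 0 changed sign. Per2 in cold on HFD was 0.0069 with DESeq2, 0.0046 with RLE normalization, 0.057 with no filter, 0.029 with a mean of at least 10 counts, 0.20 with the replicate block over all groups, 0.15 with the block within diet and 0.010 in the 6 libraries compared. Tef in cold on HFD was 0.038 with no filter, 0.011 with a mean of at least 10 counts and 0.060 in the libraries numbered 2 and 3. In batch 1 alone, cold on NCD gave -0.61 for Arntl, -0.24 for Per2, -0.37 for Cry1 and 0.33 for Dbp, and HFD at 22 °C gave -0.11 for Arntl. Per1 with HFD at 4 °C was 0.014 with the block over all groups.

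Leaving out 1 library moved cold on NCD over -0.34 to 0.92 for Arntl, -2.20 to 0.81 for Npas2, -0.36 to 0.70 for Per2, -0.18 to 0.58 for Cry1, -0.71 to 0.32 for Dbp and -0.33 to 0.25 for Tef. It moved cold on HFD over -0.80 to 1.28 for Arntl, -0.0060 to 0.32 for Clock, -2.37 to 2.51 for Npas2, -0.39 to 0.42 for Per2, -0.88 to 0.18 for Dbp and -0.30 to 0.39 for Tef. HFD at 22 °C ran over -0.53 to 1.08 for Arntl, HFD at 4 °C over -0.48 to 0.44 for Per1 and -0.90 to 3.02 for Npas2, and the interaction over -0.63 to 0.29 for Per1 and -0.76 to 4.09 for Npas2. Per1, Per3, Cry2 and Cry1 on HFD kept their sign in cold, as did Clock, Per1, Per3 and Cry2 on NCD.

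Over all genes, DESeq2 called 823 for HFD at 22 °C, 1323 for HFD at 4 °C, 2625 in the 4-group test and 773 by number, against 349, 795, 427 and 145. No filter on counts gave 1082 in the 4-group test, 27 in the interaction and 287 by number. Batch 1 alone gave 352 and 416 for cold on NCD and HFD (in place of 1049 and 1603), 42 and 53 for HFD at 22 °C and 4 °C, 0 in the 4-group test and 3 by number. The libraries numbered 2 and 3 gave 148, 233, 49, 48 and 3 in the same comparisons up to the 4-group test. The 6 libraries compared gave 149 for HFD at 4 °C and 855 for cold on HFD. The replicate block gave 270 in the 4-group test, 482 for HFD at 4 °C (within temperature) and 1 or 2 in the interaction, and an adjusted p under 0.05 gave 4067 in the 4-group test. Bhlhe40, Rbm3, Crem, Tspan4 and, on HFD, Noct were not called in batch 1 alone (adjusted p = 0.0560 to 0.140). In the libraries numbered 2 and 3 alone, Bhlhe40, Rbm3, Crem, Tspan4, Sik1 and both calls of Rorb were lost (adjusted p = 0.0919 to 0.199), and in the 6 libraries compared Rbm3 (0.0608) and Sik1 (0.0650) were. With 8 libraries there is less precision, and with 3 mice a group the members' intervals leave changes of several-fold possible for Arntl, Npas2, Per1, Per2, Per3 and Dbp.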
